A study of Mus musculus with 19 samples.

Results

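Purkinje cells of the cerebellum were compared with Gad2 neurons of the neocortex across all microRNAs (miRNAs) of the deposited table. The members are the 6 libraries that the titles assign to these classes, 3 for Purkinje cells and 3 for Gad2 neurons, of 19 libraries in the series. The table lists 528 miRNA names, of which 522 passed a filter on low values and were tested. The study profiled miRNAs in mouse brain by miRNA tagging, in which one cell class carries a Myc-tagged Ago2 protein that is pulled down from tissue lysate together with the miRNAs bound to it. Both groups were precipitated with the anti-myc antibody from mice at postnatal day 56. Purkinje libraries came from cerebellum of the background C57BL/6 & black swiss, with 3 tissues pooled per library, and Gad2 libraries from neocortex of the background C57BL/6 & 129, with 4 tissues pooled. Whole cerebellum and whole neocortex (anti-Ago2, 3 libraries each) and the parvalbumin (PV), somatostatin (SST) and Camk2a neurons of neocortex (anti-myc, with 2, 2 and 3 libraries) are used for comparison. Their libraries also entered the filter and the fit that estimated the spread. Whole-tissue and Camk2a libraries came from 1 tissue each and PV and SST libraries from 4 pooled tissues. Whole cerebellum had the background of the Purkinje libraries, PV and SST that of Gad2, and whole neocortex and Camk2a libraries C57BL/6 & BALB/c.

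MiRNAs are short RNAs cut from hairpin precursors and loaded into Argonaute proteins such as Ago2. They guide Argonaute to messenger RNAs, mainly through the bases of the seed near the 5′ end, and repress them, so miRNAs that share a seed can reach many of the same targets. Purkinje cells are the large GABAergic neurons that carry the output of the cerebellar cortex, whereas Gad2, which encodes an enzyme of GABA synthesis, is expressed by the mixed GABAergic interneurons of the neocortex.

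Levels are in reads per 1000000 miRNA reads (RPM) and describe the make-up of the miRNA pool on Ago2, not amounts per cell. Purkinje libraries held 2063132 to 3378889 miRNA reads and 445 to 447 detected miRNAs, and Gad2 libraries 6983992 to 14249087 reads and up to 491 detected miRNAs. Counts of 3 reads, used as a floor, equal 0.888 to 1.454 RPM in the Purkinje and 0.211 to 0.43 RPM in the Gad2 libraries, for counting error only, since PCR reads are not independent molecules. The p-values measure only the spread between these libraries, since separate animals are not stated, and that spread may be technical. Cell class, brain region, strain background, number of pooled tissues and depth differ together between the groups and cannot be told apart. The lines that drove the tagged protein are not given in the sources used here. The table holds no messenger RNA, so the cell class of a library rests on its label, and fewer cells of a type cannot be told apart from less RNA per cell.

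The mature sequences on which the main differences turned are printed 5′ to 3′ from RefSeq for GRCm38.p6, with the seed (bases 2 to 8) in capitals. The first set holds miRNAs with large differences in either direction that the results below describe in full, and does not follow their rank.
miR-133b: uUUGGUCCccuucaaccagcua
miR-138: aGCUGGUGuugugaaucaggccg
miR-137: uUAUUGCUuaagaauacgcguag
miR-335-5p: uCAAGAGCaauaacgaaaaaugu
miR-129-2-3p: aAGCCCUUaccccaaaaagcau
miR-153: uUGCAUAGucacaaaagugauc
miR-218: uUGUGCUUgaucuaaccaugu
The hairpin of miR-133b lies at chr1:20682769-20682887 on the plus strand, in an exon of the non-coding transcript Gm28653. MiR-138 comes from 2 hairpins, at chr9:122682876-122682974 and chr8:94324311-94324381, both on the plus strand. MiR-137 lies at chr3:118433857-118433929 (plus strand, exon of Gm26871), miR-335-5p at chr6:30741299-30741396 (plus strand, intron of Mest), and miR-129-2-3p at chr2:94241364-94241453 (minus strand, intron of Mir670hg). MiR-153 lies at chr12:117250817-117250885 (plus strand) in an intron of Ptprn2, and the 2 hairpins of miR-218 lie in introns of the axon guidance genes Slit2 (chr5:48223942-48224051) and Slit3 (chr11:35616816-35616925), both on the plus strand.

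The second set shows families whose members share a seed and differed in opposite ways or to different degrees between the classes, so that only bases outside the capitals separate them.
let-7i: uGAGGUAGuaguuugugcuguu
miR-98: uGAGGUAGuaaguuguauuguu
let-7c: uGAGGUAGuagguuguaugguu
miR-29a: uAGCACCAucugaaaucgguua
miR-29b: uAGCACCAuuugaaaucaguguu
miR-29c: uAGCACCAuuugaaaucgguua
miR-15b: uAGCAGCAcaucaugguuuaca
miR-16: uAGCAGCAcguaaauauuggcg
miR-301a: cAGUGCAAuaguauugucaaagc
miR-130a: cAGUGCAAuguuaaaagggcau
miR-221: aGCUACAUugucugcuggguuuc
miR-222: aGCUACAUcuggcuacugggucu
Let-7i lies at chr10:122985640-122985724 on the minus strand, miR-98 at chrX:151913214-151913321 on the plus strand in an intron of Huwe1, and 1 of the 2 let-7c hairpins at chr16:77599657-77599750 on the plus strand in an intron of Mir99ahg. MiR-29a lies at chr6:31062660-31062747 on the minus strand and miR-29c at chr1:195037547-195037634 on the plus strand, each beside 1 of the 2 hairpins of miR-29b (chr6:31063023-31063093 and chr1:195037040-195037120). MiR-15b (chr3:69009772-69009835) and 1 hairpin of miR-16 (chr3:69009902-69009996) are neighbours on the plus strand in an intron of Smc4, and miR-301a (chr11:87113004-87113089, plus strand) is in an intron of Ska2. MiR-130a lies at chr2:84741115-84741178 on the minus strand, and miR-221 (chrX:19146294-19146388) and miR-222 (chrX:19146893-19146971) lie side by side on the minus strand of the X chromosome. RefSeq sequences were found for all but 147 of the 528 names. Host genes are those of GENCODE M21 on the same assembly.

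The Purkinje pool differed from the Gad2 pool in 287 of 522 miRNAs (55%), by limma on log2 values at an adjusted p under 0.05. Of these, 107 were higher in Purkinje cells (20.5% of those tested) and 180 were lower (34.5%). A difference of 2-fold or more was called for 236 miRNAs, 80 higher and 156 lower. The 3 Purkinje and 3 Gad2 libraries did not overlap for 308 miRNAs (59%), and 265 of those were also called. Of the 162 miRNAs that averaged 100 RPM or more over both groups, 51 were higher and 66 lower.

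The balance of the 2 directions moved with the scaling. The median log2 difference of all tested miRNAs was -0.31 on the deposited scale, and -0.14 when miRNAs without reads in 1 group were set to its floor. Higher calls made up 37.3% of calls on the deposited scale, 44.3% (of 305 calls, 170 lower) after division by TMM factors, which rescale each library to the bulk of its miRNAs, 47.8% in edgeR with TMM factors, 50.6% in edgeR with RLE factors (160 higher and 156 lower) and 49.8% in DESeq2. The median of all miRNAs then lay at -0.18, -0.05, 0.00 and 0.06 in the same order. Where one of these 4 scalings changed the call of a miRNA named below, that is said beside it.

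At the top of the pool the classes were alike in content and different in proportion. The 10 most abundant miRNAs held 67.9% ± 0.5 (SD, n = 3) of the Purkinje pool and 65.3% ± 2.6 (n = 3) of the Gad2 pool, and 7 of them were the same. MiR-124, the most abundant miRNA of neurons, made up 29.3% ± 0.840 of Purkinje and 26.5% ± 2.01 of Gad2 reads, a log2 difference of 0.14 that did not pass (adjusted p = 0.467), although edgeR with RLE factors (0.40, adjusted p = 0.021) and DESeq2 (0.40, adjusted p = 0.0192) called it. MiR-29b, which followed, did not pass either (log2 difference 0.14, adjusted p = 0.489, and 0.41 with adjusted p = 0.0409 in edgeR with RLE factors). MiR-9, known from neural progenitors and from neurons, was at 101603, 97849 and 86611 RPM in Purkinje and at 65143, 76664 and 59940 RPM in Gad2 libraries, and was higher in Purkinje cells by 0.51 on the log2 scale (adjusted p = 0.00408). The largest single shift was that of miR-138, from 0.691% ± 0.196 of the Gad2 pool to 4.45% ± 0.847 of the Purkinje pool. Summed over all miRNAs with a larger share in Purkinje cells, the differences came to 19.4% of the pool.

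**Figure D1:**
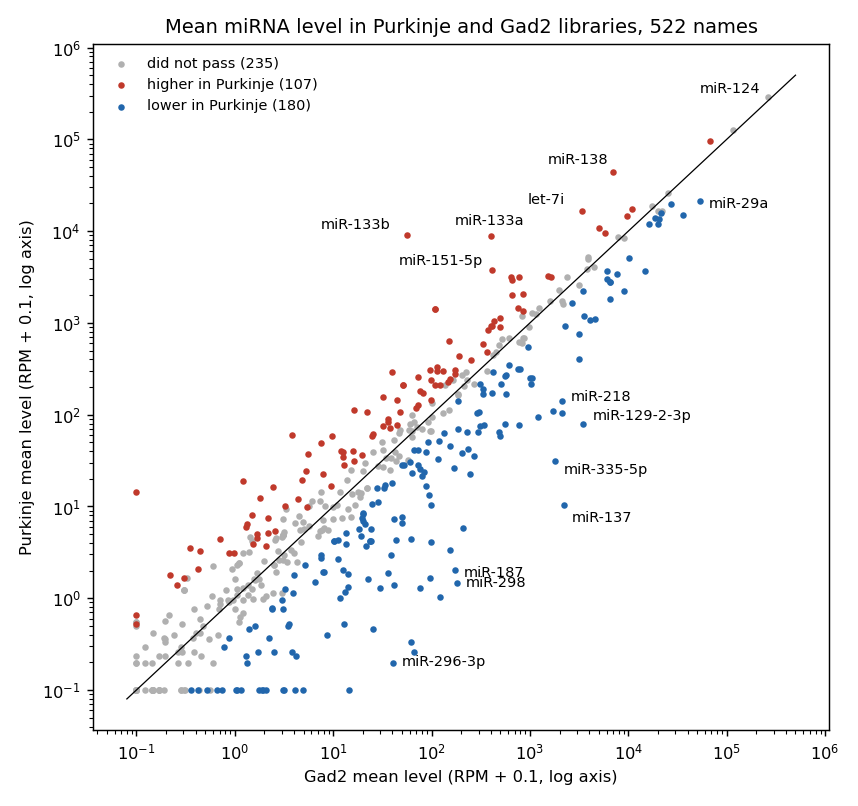
Mean level of each of the 522 tested miRNAs in Gad2 (x axis) and Purkinje libraries (y axis), both in RPM plus 0.1 on log axes, n = 3 libraries each. Red points were higher in Purkinje cells (107), blue points lower (180) and grey points did not pass, and the line marks equal levels. MiR-124 lies close to the line, miR-133b far above it, and miR-137 and miR-335-5p far below it.

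MiR-133b had the largest difference in the Purkinje direction among miRNAs of at least 100 RPM. It is best known, with miR-133a, miR-1 and miR-499, as a miRNA of heart and skeletal muscle. MiR-133b was at 8326, 10717 and 8376 RPM in the 3 Purkinje libraries and at 49.1, 66.6 and 54.8 RPM in the 3 Gad2 libraries. The log2 difference was 7.33 (SE 0.23), or 161-fold, with an adjusted p of 3.82e-16. MiR-133a was at 8020, 10404 and 8170 RPM in Purkinje and averaged 398 ± 44.5 RPM in Gad2 libraries, 22.2-fold higher in Purkinje cells (log2 difference 4.47, SE 0.17, adjusted p = 7.11e-15). Both sets of libraries were far apart and did not overlap.

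The arms opposite to these miRNAs in the hairpin, written with a star, separated the 2 genes. MiR-133b* was at 11.1, 13.2 and 18.6 RPM in Purkinje libraries and had no read in any Gad2 library, which makes it at least 136.9-fold higher against a floor of 3 reads over the Gad2 group. MiR-133a* had only 2, 2 and 1 reads in Purkinje libraries against 43, 13 and 15 in Gad2 libraries. Reads of miR-133a and miR-133b, whose mature forms are nearly the same sequence, were almost equal in Purkinje libraries (16546 and 17177 in the first, 27605 and 28302 in the third), whereas miR-133a led in Gad2 libraries (5183 and 699 in the first). The sources used here do not say how the authors divided reads between these names, so the separate levels of miR-133a and miR-133b are uncertain.

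The other muscle-named miRNAs went the opposite way. MiR-1 was at 280, 283 and 243 RPM in Purkinje and at 617, 513 and 569 RPM in Gad2 libraries, lower in Purkinje cells by a log2 difference of -1.08 (SE 0.25, adjusted p = 0.000875). MiR-499, from an intron of the myosin gene Myh7b, was at 2.91, 3.20 and 2.37 RPM against 38.5, 38.4 and 37.8 RPM (log2 difference -3.72). Of 7 tested names of the group, 3 were higher (miR-133a, miR-133b and miR-133b*), 3 were lower (miR-1, miR-133a* and miR-499) and miR-499* did not pass. This count, like those of the other lists, stands beside 20.5% higher and 34.5% lower over all tested miRNAs. The call of miR-133a* (adjusted p = 0.0357) was lost in DESeq2 (adjusted p = 0.0969) and without Purkinje replicate 3 (0.141), Gad2 replicate 1 (0.114) or Gad2 replicate 3 (0.0655), and miR-499* passed without Gad2 replicate 3 (0.0307).

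MiR-138, a brain miRNA known for its part in dendritic spine size, was the fourth most abundant Purkinje miRNA. It was at 43287, 36716 and 53529 RPM in Purkinje and at 7078, 4873 and 8772 RPM in Gad2 libraries, 6.55-fold higher (log2 difference 2.71, SE 0.23, adjusted p = 3.81e-09). The lowest Purkinje library was above the highest Gad2 library by a wide margin. The star arms of its 2 hairpins were also higher, miR-138-1* at 37.5 against 5.46 RPM (log2 difference 2.73) and miR-138-2* at 310 against 97.3 RPM (log2 difference 1.69).

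MiR-151-5p, which lies in the gene of the focal adhesion kinase Ptk2, was at 3716, 4078 and 3508 RPM in Purkinje and at 410, 410 and 421 RPM in Gad2 libraries, 9.09-fold higher (log2 difference 3.18, adjusted p = 3.96e-12). It belongs to a group with miR-28 and miR-708, derived from the same old transposon family. In this group 4 of 6 tested names were higher and none was lower, with a median log2 difference of 1.50 against -0.31 over all tested miRNAs. Besides miR-151-5p these were miR-151-3p (105.5 against 21.9 RPM), miR-28* (49.6 against 7.42 RPM) and miR-708* (394 against 250 RPM), whereas miR-28 (78.9 against 59.7 RPM) and miR-708 (1468 against 1240 RPM) did not pass. DESeq2 called all 6 higher, with adjusted p = 0.0156 for miR-28 and 0.0296 for miR-708, as did edgeR with RLE factors for both (0.0219 and 0.0271) and edgeR with TMM factors for miR-28 (0.0429).

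Further names stood at the head of the list. MiR-652, in an intron of Tmem164, was at 2736, 3247 and 3469 RPM against 670, 631 and 613 RPM (4.92-fold higher, adjusted p = 7.61e-10). MiR-676, in an intron of the ectodysplasin gene Eda, was at 219, 279 and 371 RPM against 51.0, 45.5 and 23.2 RPM (log2 difference 2.90, adjusted p = 9.84e-09). In neither case did the groups overlap. MiR-1983 averaged 631 against 150 RPM and miR-345-5p 259 against 72.2 RPM, with log2 differences of 2.06 and 1.82. MiR-1937a and miR-1937b, near-identical names that may hold the same reads, stood at about the same levels in every library (213.1 and 212.3 RPM against 51.7 and 51.1 RPM).

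MiR-486, known from red blood cells and muscle, was at 1538, 1502 and 1236 RPM in Purkinje and at 115.8, 152.7 and 57.3 RPM in Gad2 libraries, 14.1-fold higher (log2 difference 3.82, adjusted p = 5.71e-11). MiR-3107, a near-identical name, repeats these values, so the pair counts as 1 measurement. MiR-451, the defining miRNA of red blood cells, was at 40.2, 47.2 and 33.1 RPM in Purkinje and at 8.07, 12.3 and 15.03 RPM in Gad2 libraries (log2 difference 1.79). MiR-144, transcribed with miR-451, stood at 1.53 and 0.905 RPM and did not pass. Summed over the 5 tested red blood cell names, levels ran from 1279 to 1585 RPM in Purkinje and from 74.7 to 168 RPM in Gad2 libraries, nearly all of it miR-486. Whole cerebellum held more miR-451 than Purkinje libraries (mean 2108 RPM) and less miR-486 (351 RPM). Whether red blood cells contributed to the difference in miR-486 was not tested.

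Oligodendrocyte miRNAs were also higher in part. MiR-338-3p, from an intron of Aatk, was at 3071, 2619 and 3150 RPM in Purkinje and at 688, 677 and 621 RPM in Gad2 libraries (log2 difference 2.15, adjusted p = 7.61e-10), beside 3335 RPM in whole cerebellum. MiR-219-5p, the other defining miRNA of myelinating oligodendrocytes, was at 80.5, 63.7 and 36.4 RPM against 3.58, 4.58 and 2.86 RPM (log2 difference 3.95). These were the 2 called of 5 tested names, both higher, beside 20.5% higher over all miRNAs, and the sum of the 5 ran from 2743 to 3249 RPM against 681 to 734 RPM. MiR-338-5p did not pass on the deposited scale (log2 difference 0.43) but was the third higher name with TMM-scaled values (0.61, adjusted p = 0.00932), in edgeR with TMM (0.62, adjusted p = 0.012) or RLE factors (0.70, adjusted p = 0.00479), in DESeq2 (0.71, adjusted p = 0.000148), under the filter of 10 RPM (adjusted p = 0.0497) and without Gad2 replicate 3 (adjusted p = 0.0276). The part of oligodendrocytes in these values was not tested.

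Markers of other cells moved less or the other way. Of 3 vascular names, miR-126-5p was higher (106.4 against 47.9 RPM) and miR-143 lower (18.1 against 39.2 RPM), and the sum reached 424 RPM in Purkinje and 354 RPM in Gad2 libraries. The 7 leukocyte and microglia names summed to 3.26 to 30.8 RPM and 13.7 to 25.5 RPM, with the defining miR-223 (0.759 and 0.615 RPM) and miR-142-3p (0.667 and 0.590 RPM) near the read floor in both groups. One of them, miR-146a, was lower (0.485, 14.4 and 0.296 RPM against a mean of 13.5 RPM, with overlap), a call absent in DESeq2 (adjusted p = 0.158) and in the 6 libraries alone (adjusted p = 0.12). Another, miR-150, was higher (3.64 against 1.99 RPM, adjusted p = 0.0486), with overlap, and lost its call in edgeR with TMM factors (adjusted p = 0.0667), in the 6 libraries alone (adjusted p = 0.261) and without either Purkinje replicate 1 or 2 or Gad2 replicate 1 or 3 (adjusted p from 0.066 to 0.347). All 6 names of choroid plexus and ependyma were lower, with sums of 10.9 to 18.9 RPM in Purkinje and 107.94, 98.99 and 123 RPM in the 3 Gad2 libraries. They include the arms of miR-34b and miR-34c, which are described with their family.

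**Figure D2:**
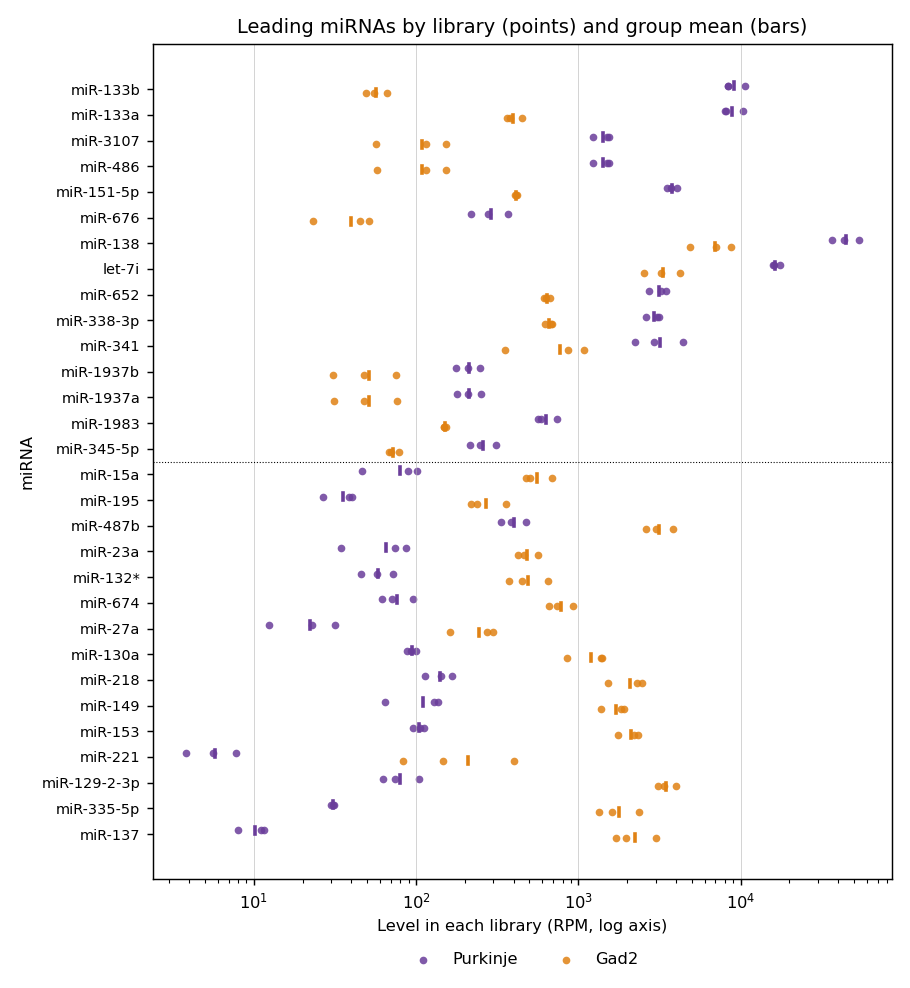
Level in RPM (log axis) of the 15 miRNAs of highest and the 15 of lowest log2 difference among those called that averaged 100 RPM or more without overlap between groups. Each point is a library, purple for Purkinje and orange for Gad2, and each bar a group mean (n = 3), with the dotted line between the 2 directions. The point clouds of miR-133b and of miR-137 are the farthest apart, and those of miR-221 are widely spread in Gad2 libraries.

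MiR-137 had the largest difference in the Gad2 direction among miRNAs of at least 100 RPM. It is a neuronal miRNA known for its links to synaptic function and psychiatric disease. MiR-137 was at 11.1, 8.01 and 11.5 RPM in Purkinje and at 1958, 1711 and 2993 RPM in Gad2 libraries, lower in Purkinje cells without overlap (log2 difference -7.72, SE 0.23, adjusted p = 3.82e-16). MiR-137* had no read in any Purkinje library, at least 12.7-fold lower against the floor over the Purkinje group. MiR-335-5p, from the imprinted gene Mest, was at 30.1, 30.8 and 31.4 RPM against 1337, 1621 and 2379 RPM, 56-fold lower (log2 difference -5.81, adjusted p = 3.01e-15).

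The neuronal list, which holds the arms of 14 miRNAs named for their enrichment in neurons, was mostly lower. Of 36 tested names 22 were lower and 4 higher, with a median log2 difference of -2.01, beside 34.5% lower and 20.5% higher and a median of -0.31 over all miRNAs. The list still took a larger share of the Purkinje pool (45.0% ± 0.333 against 38.3% ± 2.23), most of it miR-124, miR-9 and miR-138. The 4 higher names were miR-9 and the 3 arms of miR-138. DESeq2 and edgeR with RLE factors called 7 higher and 20 lower.

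Several lower members were abundant in Gad2 neurons and scarce in Purkinje cells. MiR-129-2-3p was at 104, 74.1 and 62.2 RPM in Purkinje and at 3088, 3392 and 3972 RPM in Gad2 libraries, 44.3-fold lower (log2 difference -5.47, adjusted p = 9.32e-15). The same hairpin family was uneven, since miR-129-5p was at 188 against 331 RPM (log2 difference -0.77) and miR-129-1-3p, from the other hairpin, did not pass (269 against 202 RPM, higher in DESeq2 with adjusted p = 0.0222 and in edgeR with 0.0389 by TMM and 0.0191 by RLE factors). MiR-153, whose host gene Ptprn2 encodes a dense-core vesicle protein, was at 112, 105 and 95.3 RPM against 2322, 2216 and 1756 RPM (20-fold lower). MiR-149, in an intron of the glypican gene Gpc1, was at 136.2, 128.9 and 64.5 RPM against 1384, 1918 and 1832 RPM (16.2-fold lower). MiR-218, known from motor neurons as well as forebrain, was at 142, 167 and 114 RPM against 2286, 2478 and 1518 RPM (14.7-fold lower). No Purkinje library reached the lowest Gad2 library for miR-129-2-3p, miR-153, miR-149 or miR-218.

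Members induced by neuronal activity were lower too. MiR-132 and miR-132*, targets of the transcription factor CREB, were at 38.0 against 205 RPM and at 58.4 against 492 RPM, with log2 differences of -2.43 and -3.06. Both named arms of miR-212, which shares their primary transcript, were lower as well. Of the other members, miR-7b (4.04 against 98.9 RPM, log2 difference -4.62), miR-135b (1.19 against 30.1 RPM, log2 difference -4.58) and miR-7a (65.3 against 298.7 RPM, log2 difference -2.17) were lower.

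MiR-128, a forebrain miRNA hosted by R3hdm1 and Arpp21, was lower against Gad2 neurons (2169, 2438 and 2011 RPM against 7018, 7191 and 13159 RPM, log2 difference -1.99, adjusted p = 2.53e-08). Its level in Purkinje cells was however close to the means of PV (1888 RPM) and SST neurons (2344 RPM), while Camk2a neurons, the excitatory cells of the neocortex, held 153461 RPM.

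A few lower miRNAs were close to absent in Purkinje libraries. MiR-187 was at 0.485, 3.20 and 2.07 RPM in Purkinje and at 205, 171 and 140 RPM in Gad2 libraries (log2 difference -6.72, adjusted p = 9.03e-11), and miR-187* had no Purkinje read, at least 38.3-fold lower. MiR-296-3p and miR-298, neighbours in the imprinted Gnas region, were at 0, 0 and 0.296 RPM against 47.6, 34.7 and 39.4 RPM and at 0.969, 1.60 and 1.48 RPM against 224.6, 143.6 and 173 RPM. MiR-672, in an intron of Nexmif, was at 1.94, 1.60 and 1.18 RPM against 88.1, 78.8 and 124.9 RPM. In all, 35 tested miRNAs had no read in the Purkinje libraries but some in Gad2 libraries, and 16 of them had a Gad2 mean above the Purkinje floor, while 9 had reads in Purkinje libraries alone, 7 of them above the Gad2 floor.

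The miRNAs listed in these data for neocortical interneurons (arms of miR-187, miR-551b, miR-31, miR-873 and miR-139) were mostly lower in Purkinje cells, 8 of 10 names with a median log2 difference of -1.35, beside 34.5% lower and a median of -0.31 over all miRNAs. These names came from the same libraries' earlier results, so their count is a description. Summed over the 10 names, they took 0.351% of the Purkinje and 0.734% of the Gad2 pool. The low share was not particular to Purkinje cells, since PV neurons held 0.271%. SST neurons held 1.78% and the excitatory Camk2a neurons 0.781%. MiR-551b was at 205, 186 and 110 RPM in Purkinje and at 585, 461 and 652 RPM in Gad2 libraries (log2 difference -1.80). MiR-873 was at 80.9, 109 and 124 RPM against 339, 267 and 258 RPM (log2 difference -1.47). MiR-139-5p, in an intron of the phosphodiesterase gene Pde2a, averaged 3010 against 6128 RPM (log2 difference -1.07). The exception was miR-31, at 151.2, 152.5 and 210 RPM in Purkinje and at 76.3, 57.6 and 110 RPM in Gad2 libraries, higher in Purkinje cells without overlap (log2 difference 1.11, adjusted p = 0.000576), as was miR-31*.

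MiR-221 and miR-222 share a seed and a locus, and all 4 of their tested arms were lower. MiR-221 was at 7.75, 5.60 and 3.85 RPM in Purkinje and at 147, 83.6 and 400 RPM in Gad2 libraries (log2 difference -4.92, adjusted p = 4.36e-10). MiR-222 was at 1.45, 1.20 and 0.888 RPM against 65.8, 41.7 and 123 RPM (log2 difference -5.79, adjusted p = 1.11e-12). The third Gad2 library held the most of both, and the groups did not overlap. Summed over the 4 arms, they took 0.000692% of the Purkinje and 0.0290% of the Gad2 pool. PV (0.00540%) and SST neurons (0.00793%) lay between these, and Camk2a neurons held more (0.332%). The pair is known for repressing the cell cycle inhibitor p27.

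Within the let-7 family, which shares the seed GAGGUAG and is known for holding cells in a differentiated state, members went opposite ways. Let-7i was at 15972, 15783 and 17443 RPM in Purkinje and at 3227, 2542 and 4260 RPM in Gad2 libraries, 5.01-fold higher (log2 difference 2.33, adjusted p = 4.36e-10). MiR-98, the other higher mature form, was at 2129, 2104 and 1939 RPM against 807, 702 and 1033 RPM (log2 difference 1.30, adjusted p = 2.47e-06). Let-7c was at 14274, 13265 and 17057 RPM against 41488, 29052 and 37721 RPM, 2.41-fold lower (log2 difference -1.27, adjusted p = 1.61e-06). The groups overlapped for none of these 3.

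Let-7b (5133 against 10275 RPM) and let-7e (7632 RPM in Gad2 and 3383 RPM in Purkinje libraries) were also lower, the latter by a log2 difference of -1.16. Let-7d and let-7f did not pass. Let-7a was called lower (15629 against 21318 RPM, log2 difference -0.43, adjusted p = 0.0357), a call lost with TMM-scaled values (adjusted p = 0.234), in edgeR with TMM (0.184) or RLE factors (0.346), in DESeq2 (0.337), in the 6 libraries alone (0.0865), and without Purkinje replicate 2 or 3 or Gad2 replicate 1 or 3 (adjusted p from 0.0524 to 0.194). Over the 21 tested names of the family 5 were higher and 6 lower, 4 were lower in edgeR and DESeq2, and 3 were higher in the 6 libraries alone. The summed seed family of 9 names made up 9.61% ± 0.199 of the Purkinje pool and 12.7% of the Gad2 pool (13.1%, 10.5% and 14.6% in its libraries, log2 difference -0.39, adjusted p = 0.0328), so the family total moved far less than let-7i or let-7c. Let-7 members differ by few bases, so the split between them rests on the authors' counting.

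The miR-29 family, known for repressing collagen genes and for its rise in mature neurons, showed a difference in 1 of its 3 mature forms. MiR-29a was at 19865, 23137 and 20416 RPM in Purkinje and at 51879, 58252 and 49050 RPM in Gad2 libraries, 2.51-fold lower without overlap (log2 difference -1.33, adjusted p = 2.19e-07). MiR-29b (126874 ± 6464 against 114957 ± 7770 RPM, SD, n = 3) and miR-29c (18961 against 17582 RPM, log2 difference 0.10, adjusted p = 0.636) did not pass. MiR-29a* was lower as well, at 108 against 306 RPM (log2 difference -1.48). The summed family was 16.7% ± 0.171 of the Purkinje and 18.6% ± 1.43 of the Gad2 pool and did not pass (log2 difference -0.15, adjusted p = 0.381).

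The miR-15/16 family, which carries the seed AGCAGCA and targets cyclins, was split as well. MiR-15b was at 136.7, 138.5 and 60.1 RPM in Purkinje and at 12.2, 19.6 and 16.5 RPM in Gad2 libraries, 6.58-fold higher (log2 difference 2.72, adjusted p = 2.42e-07). MiR-16, far more abundant, was at 1431, 1143 and 653 RPM against 3758, 4867 and 3525 RPM, 3.92-fold lower (log2 difference -1.97). MiR-15a (89.7, 102 and 46.8 RPM against 503, 684 and 478 RPM) was 7.27-fold lower. The third Purkinje library was the lowest of its group for each of the 3.

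MiR-195 and miR-497, which share a primary transcript, were lower by log2 differences of -2.93 and -2.67 (35.2 against 272 RPM and 26.1 against 170 RPM). Of 12 tested names of the miR-15/16 list 3 were higher and 7 lower, and the list took 0.134% of the Purkinje pool and 0.507% of the Gad2 pool. MiR-322 was among the higher (4.98 against 2.09 RPM) with overlap between groups, a call lost in the 6 libraries alone (adjusted p = 0.158) and without Purkinje replicate 2 (0.0963), Gad2 replicate 1 (0.0843) or Gad2 replicate 3 (0.144).

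MiR-130a and miR-301a, which share the seed AGUGCAA, also went opposite ways. MiR-130a was at 93.1, 88.1 and 101 RPM in Purkinje and at 1391, 1371 and 848 RPM in Gad2 libraries, 12.5-fold lower (log2 difference -3.64, adjusted p = 3.57e-12). MiR-130b was lower with it (10.3 against 99.3 RPM). MiR-301a was at 545, 356 and 418 RPM against 146.1, 188.9 and 236 RPM, 2.32-fold higher (log2 difference 1.21, adjusted p = 4.85e-05). Neither pair of groups overlapped.

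A similar division ran through the miR-99 and miR-30 families. MiR-99a was at 995, 1308 and 1003 RPM in Purkinje and at 4593, 4787 and 4336 RPM in Gad2 libraries (log2 difference -2.06), while miR-99b was higher (1135 against 498 RPM, log2 difference 1.21). In the miR-30 list 7 of 13 tested names were higher and 4 lower, beside 20.5% and 34.5% over all miRNAs. MiR-30c (3190 against 1653 RPM, log2 difference 0.93), miR-30b (3238 against 1511 RPM, log2 difference 1.09) and miR-30d (9433 against 5856 RPM, log2 difference 0.68) were higher, as was miR-30e* (297 against 113 RPM, log2 difference 1.41). MiR-384-5p and miR-384-3p were lower (1185 against 3581 RPM and 251 against 1057 RPM). Without Purkinje replicate 1 the call of miR-30c was lost (adjusted p = 0.0571).

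Of the proliferation-linked miR-17-92 cluster and its paralogs 6 of 18 tested names were higher and 2 lower, beside 20.5% and 34.5% over all miRNAs, and 4 were lower without Purkinje replicate 2. The 3 miRNAs of the Mcm7 gene were all higher, miR-93 at 935, 720 and 1131 RPM against 379, 347 and 505 RPM (log2 difference 1.17), miR-106b at 71.2 against 38.1 RPM and miR-25 at 28.3 against 12.9 RPM. MiR-92a was higher (19.4 against 4.68 RPM) and miR-92b, with the same seed, lower (3.57 against 21.5 RPM).

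In the miR-34 family, targets of p53, all 4 arms of miR-34b and miR-34c were lower, miR-34c at 4.37 against 61.3 RPM (log2 difference -3.77) and miR-34b-5p at 1.54 against 22.7 RPM (log2 difference -3.81). MiR-34a, which has the same seed and makes up nearly all of the family's reads, did not pass (5017 ± 530 against 3902 ± 1173 RPM, log2 difference 0.40, adjusted p = 0.184), though edgeR with TMM (0.53, adjusted p = 0.0458) or RLE factors (0.61, adjusted p = 0.0185) and DESeq2 (0.61, adjusted p = 0.0247) called it higher.

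In the miR-23/24/27 list 3 of 11 tested names were called, miR-27a (22.3 against 245 RPM, log2 difference -3.51), miR-23a (65.0 against 484.2 RPM, log2 difference -2.99) and miR-24 (1651 against 2683 RPM, log2 difference -0.69), all lower. The call of miR-24 was lost in edgeR with RLE factors (adjusted p = 0.055) and DESeq2 (adjusted p = 0.0642). MiR-181a and miR-181b, known from brain and from T cells, were lower (12018 against 19961 RPM and 2822 against 6554 RPM), while miR-181c* was higher (209 against 122 RPM). MiR-26a (19540 against 27318 RPM, adjusted p = 0.0434) lost its call with TMM-scaled values (adjusted p = 0.269), in edgeR with TMM (0.189) or RLE factors (0.312), in DESeq2 (0.39) and without any 1 library but Gad2 replicate 3 (adjusted p from 0.0592 to 0.153), and with it the miR-26 list of 5 tested names, with 3 lower, had no call left in edgeR or DESeq2.

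Across all pairs of names that share a seed, 119 were formed and both members were called in 52. The 2 members went the same way in 30 of these and opposite ways in 22. Many of these pairs, of both kinds, come from the let-7 family and share members, so pairs are not independent. The same-way pairs include miR-199a-3p and miR-199b, whose sequences do not differ over the 22 compared bases. The share expected from 107 higher and 180 lower calls was not computed. Whether names with a shared seed agree more often than other pairs was therefore not tested. Summed by seed, 174 of 310 families were called (56.1%), 50 higher (16.1%) and 124 lower (40%). Of the 43 families with 2 or more names 4 were higher and 22 lower, and 7 held members called in both directions. These sums cover the names with a RefSeq sequence, which took 66.8% of Purkinje and 71.2% of Gad2 reads.

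Median log2 differences of the lists are set beside -0.31 [-0.14] over all 522 miRNAs tested. Square brackets hold the median recomputed with the bound of 3 reads for miRNAs that had reads in only 1 of the groups. Where the mean of the group with reads was under that bound, the change was set to 0. They were -1.08 [0.00] for the muscle-named miRNAs, -0.43 for let-7, -0.30 for miR-29, -2.32 [-1.65] for miR-15/16 and -2.61 [-1.61] for miR-130 and miR-301. The miR-30 list stood at 0.61, the miR-17-92 list at 0.02, the miR-34 list at -3.64 [-1.94] and the list of miR-221 and miR-222 at -4.26 [-3.52]. The muscle-named and miR-23/24/27 lists (-0.36 [0.00]) had a median of 0.00 by that second measure. That 0.00 falls on members set to 0 by the rule, so it is not a measured change.

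**Figure D3:**
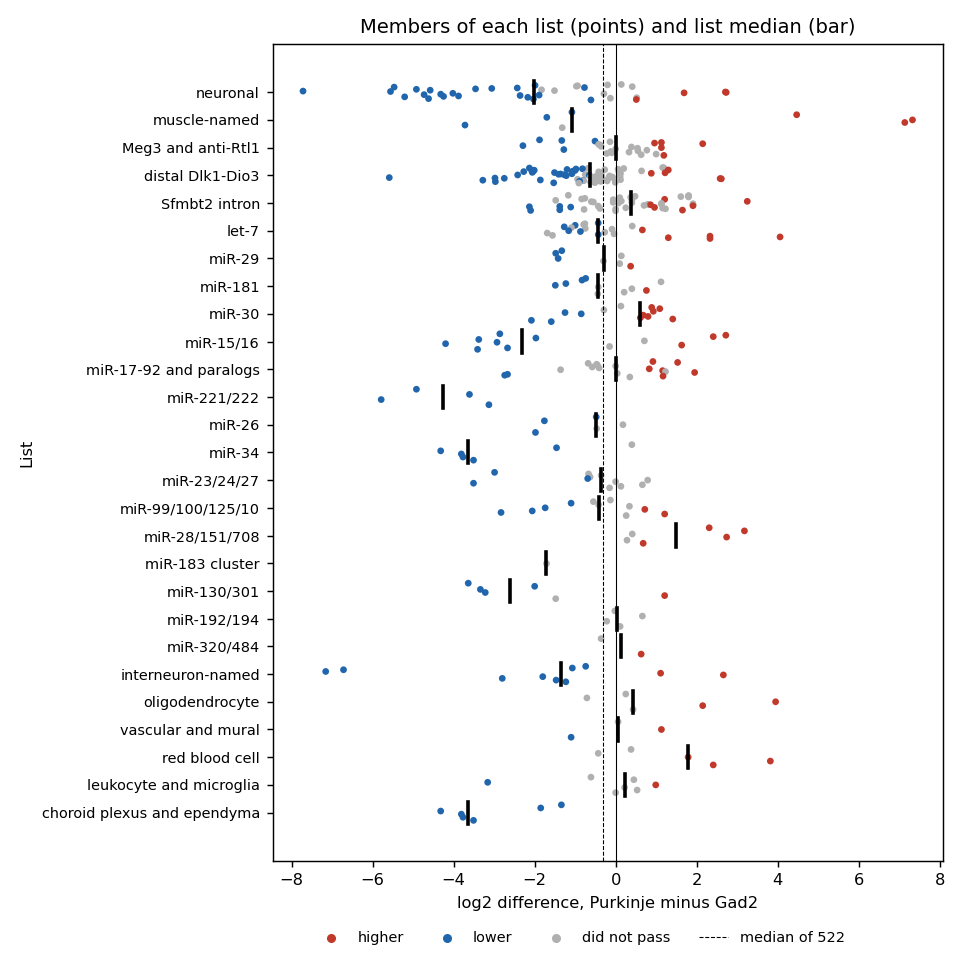
log2 difference, Purkinje minus Gad2 (x axis), of every tested member of each list (rows), with red points higher, blue points lower and grey points that did not pass. Black bars mark list medians and the dashed line the median of all 522 miRNAs (-0.31). The medians of the neuronal list (-2.01) and of the miR-34 list lie left of the dashed line, and that of miR-28, miR-151 and miR-708 right of it.

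Imprinted miRNA clusters of the Dlk1-Dio3 domain, which are expressed from the maternal chromosome and are abundant in neurons, were counted in 2 lists. In the distal cluster 28 of 66 tested names were lower and 5 higher, with a median log2 difference of -0.64, beside 34.5% lower and 20.5% higher over all miRNAs. Its share was 3.74% ± 0.293 in Purkinje and 6.73% ± 0.583 in Gad2 cells. MiR-487b was at 387, 477 and 335 RPM in Purkinje and at 3031, 2617 and 3841 RPM in Gad2 libraries (log2 difference -2.98, adjusted p = 6.82e-10). MiR-369-3p, one of the most abundant of the cluster, was at 3595, 4364 and 2994 RPM against 14991, 13382 and 16221 RPM (log2 difference -2.04). MiR-134, which represses Limk1 in dendrites, averaged 77.7 against 339 RPM (log2 difference -2.13), miR-376b 762 against 3188 RPM (log2 difference -2.06) and miR-300 2820 against 6477 RPM (log2 difference -1.20). DESeq2 called 25 lower and 8 higher, and edgeR also 8 higher.

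Not all of the distal cluster was lower. MiR-494 (58.0 against 9.70 RPM, log2 difference 2.58) and miR-377 (898 against 495.9 RPM, log2 difference 0.88) were higher, and miR-411 (1241 against 1143 RPM) and miR-376a, the most abundant member, did not pass, although miR-376a did without Purkinje replicate 3 (log2 difference -0.54, adjusted p = 0.032).

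In the Meg3 and anti-Rtl1 part of the domain 5 of 25 tested names were higher and 5 lower, with a median log2 difference of 0.00, and DESeq2 and edgeR called 10 higher and 4 lower. MiR-341, in an intron of Rian, was at 2234, 2920 and 4446 RPM in Purkinje and at 1088, 868 and 353 RPM in Gad2 libraries (log2 difference 2.15, adjusted p = 2.62e-05). MiR-433, antisense to Rtl1, was at 10277, 10374 and 11949 RPM against 6048, 4196 and 4742 RPM (log2 difference 1.13, adjusted p = 2.11e-05), and miR-770-5p, within Meg3, averaged 845 against 371 RPM. MiR-127, the next miRNA after miR-433, was at 1572, 1650 and 2187 RPM against 6428, 6848 and 6372 RPM, lower by a log2 difference of -1.88 (adjusted p = 2.04e-08). MiR-434-3p, which follows miR-127, did not pass (3833 against 3830 RPM).

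The Sfmbt2 intron, a rodent-specific array of miR-297, miR-466, miR-467 and miR-669 copies, contributed 0.0167% of the Purkinje and 0.0133% of the Gad2 pool. Of its 47 tested names 6 were higher and 5 lower, beside 20.5% and 34.5% over all miRNAs, with a median log2 difference of 0.37. These counts rested on single libraries and on the scaling. The higher names numbered 1 without Purkinje replicate 1 (median 0.00) or Gad2 replicate 2, 2 without Gad2 replicate 1, 3 without Purkinje replicate 2 and 16 without Purkinje replicate 3 (with 2 lower), and 13 with TMM-scaled values, 11 in DESeq2 and 18 in edgeR. These copies are near-identical and low, so single names are uncertain.

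The 2 arms of a hairpin did not always differ together. The ratio of the minor to the major arm was called for 35 hairpins (23.2% of those tested), 17 higher and 18 lower in Purkinje cells. With 5 reads instead of 0.5 added to each arm 64 were called, 46 higher and 18 lower, and among hairpins with a mean of at least 5 reads of each arm in each group 30 were, 12 higher and 18 lower. The number of higher ratios therefore depended on the reads added and on this filter.

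MiR-485 is from the distal Dlk1-Dio3 cluster. It made up 1.17%, 1.22% and 4.35% of the reads of its hairpin in Purkinje libraries and 54.0%, 40.4% and 42.1% in Gad2 libraries (log2 ratio change -5.37, adjusted p = 8.45e-06). The level of miR-485 was lower (3.29 against 154.8 RPM, log2 difference -5.59), whereas its partner miR-485* was at 170 against 186.5 RPM and did not pass. The 2 arms of this hairpin were close to even in Gad2 neurons, and 1 arm held nearly all reads in Purkinje cells.

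MiR-9 and miR-9*, both of which are functional and repress parts of the REST complex, also shifted against each other. They carry different seeds.
miR-9: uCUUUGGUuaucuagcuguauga
miR-9*: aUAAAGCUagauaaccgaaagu
The 3 hairpins lie at chr3:88215598-88215686, chr13:83738814-83738885 and chr7:79505264-79505353, all on the plus strand. MiR-9* held 12.5%, 11.4% and 13.2% of the reads of the 2 arms in Purkinje libraries and 21.7%, 21.3% and 27.6% in Gad2 libraries (log2 ratio change -1.12, adjusted p = 0.00222). MiR-9 was higher and miR-9* lower in Purkinje cells, the latter at 13432 ± 934 against 20529 ± 2404 RPM (log2 difference -0.61, adjusted p = 0.000409), a call lost in edgeR with RLE factors (adjusted p = 0.0562).

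In the hairpin of miR-544 the 2 arms were close to even in Gad2 libraries, and miR-544-3p was dominant in Purkinje libraries. MiR-544-3p held 82.4%, 84.4% and 87.4% of its hairpin in Purkinje and 47.9%, 41.3% and 54.3% in Gad2 libraries. In the pairs of arms named next the same arm stayed dominant while its share moved. MiR-219-5p held 65.7% of the reads of miR-219-5p and miR-219-3p in Gad2 and 96.2% in Purkinje libraries (log2 ratio change 3.64). MiR-219-3p had only 11 to 28 reads in Gad2 and 4 to 7 in Purkinje libraries. MiR-28* held 11.4% of its hairpin in Gad2 and 38.8% in Purkinje libraries (2.33). The share of miR-338-5p moved the other way, at 6.61% in Gad2 and 2.08% in Purkinje libraries, as did miR-434-5p (9.81% and 4.29%), and all 5 ratios were called. Ratios of miR-137*, miR-221* and miR-222*, with no read of the star arm in Purkinje libraries, are set by the 0.5 reads added and are not read. The dominant arm of the miR-296 hairpin also changed, with miR-296-5p at 21.1% in Gad2 and 96.7% in Purkinje libraries (log2 ratio change 5.18, adjusted p = 1.98e-07). Purkinje libraries held only 3 to 9 reads of miR-296-5p and 0 to 1 of miR-296-3p.

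Whole cerebellum and whole neocortex, precipitated with anti-Ago2, show how the same 2 regions differ without the restriction to a class. These 6 libraries share none with the Purkinje and Gad2 groups, and each difference was taken within 1 antibody. Antibody, cell class, number of pooled tissues and the background of the neocortical mice differ between the 2 comparisons and cannot be told apart. Between the tissues 290 of 522 miRNAs were called (55.6%), 102 higher and 188 lower in cerebellum. Of the 287 miRNAs called between the classes 47% were called the same way between the tissues (46.6% of the tissue calls) and 61 the opposite way. Across miRNAs the 2 sets of log2 differences had a Pearson correlation of 0.32 and a Spearman correlation of 0.29 (522 miRNAs, which are not independent replicates).

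The difference between the 2 differences was called for 239 miRNAs (45.8%), 123 above and 116 below the tissue difference, and for all 61 that went opposite ways. MiR-138 was higher in Purkinje cells than in Gad2 neurons but lower in whole cerebellum than in whole neocortex (2102 against 4666 RPM), a difference of differences of 3.86 on the log2 scale (adjusted p = 7.89e-09). MiR-129-2-3p was lower in Purkinje cells and higher in cerebellum (9812 against 3889 RPM), with -6.84. MiR-195 was lower in Purkinje cells and higher in cerebellum (4111 against 341.4 RPM), with -6.53, and miR-130a behaved alike (2641 against 778 RPM, -5.42).

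For others the classes and the tissues went the same way. MiR-133b was higher in cerebellum (log2 difference 5.39) and miR-137 lower (436 against 8794 RPM), and in both cases the class difference was the larger (differences of 1.94 and -3.43, adjusted p = 3.53e-05 and 3.18e-08). MiR-29a was lower by like amounts in the classes and the tissues (log2 differences of -1.33 and -1.44, with adjusted p = 0.708 for their difference). MiR-151-5p (1597 against 1957 RPM) and let-7i (7594 against 7085 RPM), both among the higher miRNAs of Purkinje cells, did not pass between the tissues.

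**Figure D4:**
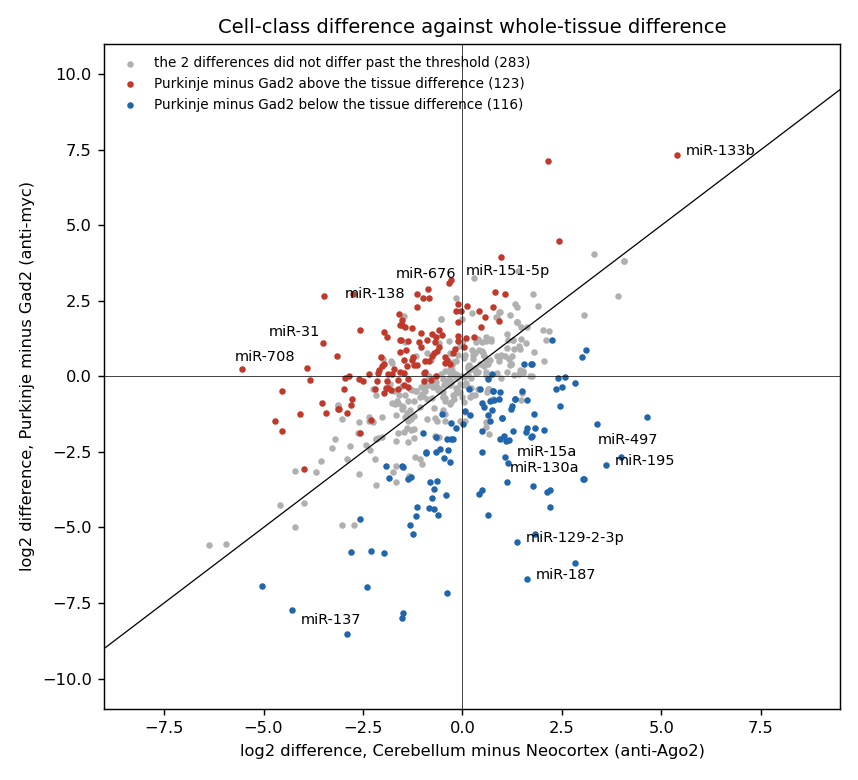
log2 difference between whole cerebellum and whole neocortex (x axis, anti-Ago2) and between Purkinje and Gad2 cells (y axis, anti-myc) for 522 miRNAs, with the line of equal differences. Red points (123) lay above and blue points (116) below the tissue difference by limma, and grey points did not pass. MiR-138 and miR-676 sit at the upper left and miR-129-2-3p, miR-195 and miR-130a at the lower right.

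The other neocortical classes show how far these levels were typical of GABAergic neurons. All 3 Purkinje libraries were above all 7 libraries of Gad2, PV and SST neurons for 59 miRNAs (11.3%), 56 of which were called against Gad2, and below all 7 for 129 (24.7%), 122 of which were called. PV interneurons, which like Purkinje cells contain parvalbumin, lay nearer to Purkinje cells than SST interneurons did for 71 of the 117 called miRNAs of at least 100 RPM, and SST interneurons lay nearer for 46. Of the 66 that were lower in Purkinje cells, the PV mean was under the SST mean for 58, and of the 51 higher ones it was above for 16. The PV mean was thus mostly the lower one in both directions, and its share over all tested miRNAs was not counted. TMM factors were 0.969 and 0.958 for the PV and 1.375 and 1.3 for the SST libraries. None of these PV and SST counts was repeated on TMM-scaled values, so a likeness of PV to Purkinje cells cannot be read from them. The PV and SST groups hold 2 libraries each, and the order of the 2 classes was not tested.

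MiR-133b averaged 246 RPM in PV, 3.80 RPM in SST and 10.4 RPM in Camk2a cells, all under the 9140 ± 1366 RPM of Purkinje cells. MiR-138 averaged 8090, 12815 and 7737 RPM in the same classes, so its high level in Purkinje cells (44511 ± 8473 RPM) was above every other class. MiR-137 was at 229 RPM in PV cells, between Purkinje cells (10.2 ± 1.94 RPM) and SST cells (2675 RPM). PV cells were low in miR-187 too (7.97 RPM), near Camk2a cells (4.83 RPM), whereas SST cells held 703 RPM. MiR-218 was in contrast highest in PV cells (6502 RPM), with 1245 RPM in SST and 6004 RPM in Camk2a cells, and Purkinje cells held the least of these classes.

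**Figure D5:**
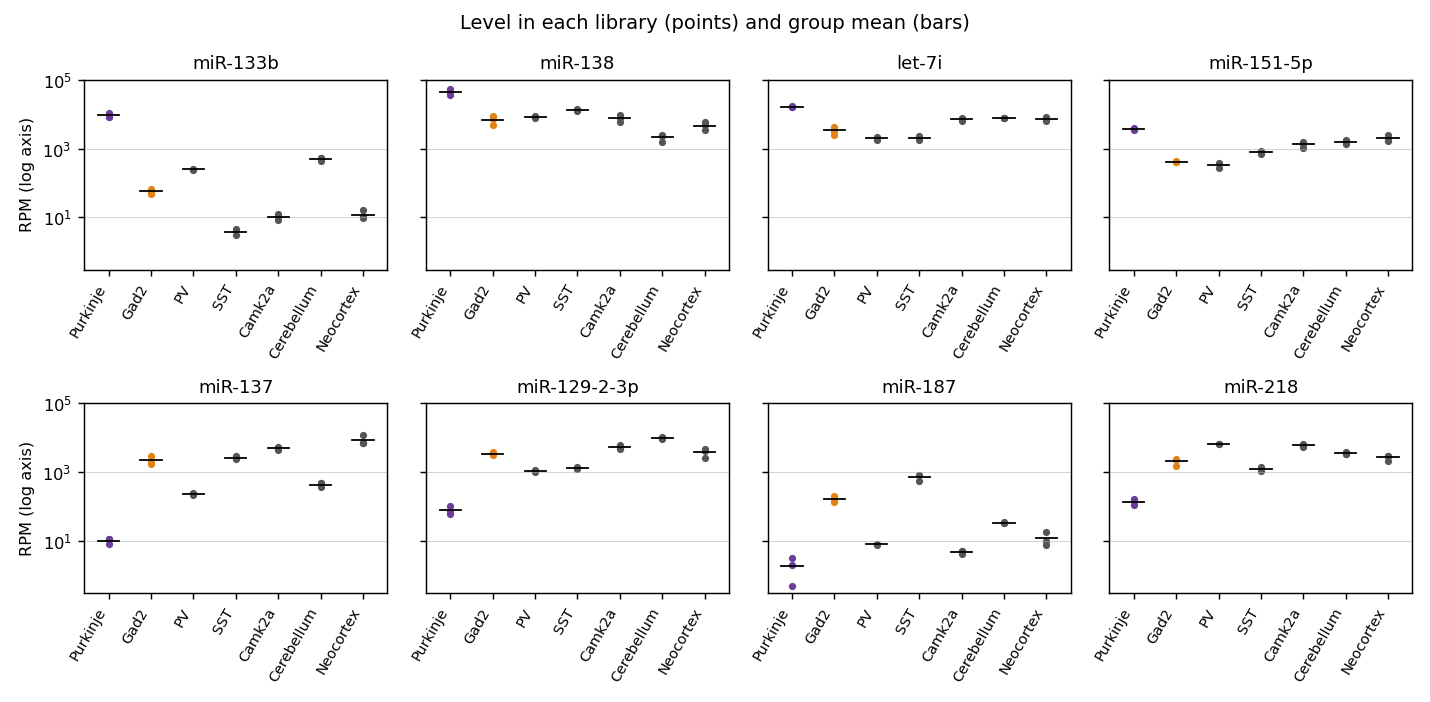
Level in RPM (log axis, shared by all panels) of 8 miRNAs in every library (points) of the 7 groups, with group means as bars (n = 3, or 2 for PV and SST). The upper row shows miRNAs higher in Purkinje cells than in Gad2 neurons and the lower row miRNAs that were lower. In each upper panel the Purkinje libraries are the highest, and in each lower panel they are the lowest of the 7 groups.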

How the data were processed

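Per the labels' protocols, RNA of 19 to 24 nt from Ago2 immunoprecipitates was ligated to adaptors, PCR-amplified and read on an Illumina Genome Analyzer II. Reads were mapped to mm9 with Bowtie (version not given), per the submitters' processing notes. The deposited signal is a read count per miRNA name scaled by the authors to a common total, so each column summed to 10000000 although the file header speaks of 1000000. Values were divided by 10 to give RPM. Whole reads were recovered to a tolerance of 0.006 in 18 of 19 columns and used only for depth, arm ratios and count models.

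Libraries were grouped by title. Limma 3.58.1 (R 4.3.3) with a trend was fitted to log2(value + 1) of the deposited scale in 1 fit of 7 group means. The fit took miRNAs that reached a value of 1 in 2 or more of the 19 libraries. Benjamini-Hochberg adjustment ran over all miRNAs tested, with calls made at an adjusted p under 0.05. Folds come from the fitted log2 difference and are understated for low miRNAs. Ratios of reads used (minor arm + 0.5)/(major arm + 0.5). Alternatives were edgeR 4.0.16, DESeq2 1.42.0, other pseudocounts, filters and scalings, the 6 libraries alone, a replicate block and leaving out each library. The model was checked on simulated data.

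The rule for named miRNAs took the 15 highest and 15 lowest log2 differences among those called that averaged 100 RPM or more without overlap. Added were the 10 most abundant of either group, up to 4 called members of each list with at least 10 RPM, the 5 flattest of at least 1000 RPM, and the other arms. The 5 highest and 5 lowest of the difference of differences were added too, among those called that averaged 100 RPM or more. Named outside it, and chosen after their values were seen, were let-7b, let-7e, let-7f, miR-1, miR-7a, miR-16, miR-25, miR-30b, miR-30d, miR-31*, miR-34a, miR-128, miR-134, miR-139-5p, miR-142-3p, miR-144, miR-150, miR-223, miR-296-3p, miR-298, miR-300, miR-322, miR-369-3p, miR-376b, miR-377, miR-433, miR-672 and miR-770-5p. MiR-296-5p was likewise added after its values were seen. The arm ratios and seed families described were not taken by such a ranking. The called ratio of miR-133a* to miR-133a (log2 ratio change -5.98), for example, was not described. Members and lists were chosen with earlier results of these data known.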

Additional observations from a re-analysis of the deposited data

Results flagged for a closer look

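The difference between Purkinje and Gad2 cells departed from that between whole cerebellum and whole neocortex for 239 of 522 miRNAs (45.8%), by a limma test of the difference of the 2 log2 differences. The 5 highest and 5 lowest follow, taken only among those called that averaged 100 RPM or more over the Purkinje and Gad2 groups. Rarer miRNAs, whatever their difference, were left out. Each is given as that difference on the log2 scale with the levels in the tissues. Antibody, cell class, the number of pooled tissues (1 per whole-tissue library, 3 for Purkinje and 4 for Gad2) and the background of the neocortical mice differ between the comparisons and cannot be told apart.

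Above the tissue difference stood miR-31 (4.62), a miRNA of 27.7 RPM in whole cerebellum and 315 RPM in whole neocortex that was higher in Purkinje than in Gad2 cells. MiR-708 (4.18) and miR-708* (3.83) were low in cerebellum (120 and 42.3 RPM) against neocortex (1888 and 376.7 RPM); between Purkinje and Gad2 cells miR-708 did not pass (adjusted p = 0.0296 in DESeq2) and miR-708* was higher in Purkinje cells. MiR-138 (3.86) and miR-676 (3.76) were lower in cerebellum and higher in Purkinje cells, with miR-676 at 42.3 and 76.3 RPM in the tissues.

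Below it stood miR-129-2-3p (-6.84), miR-195 (-6.53), miR-130a (-5.42), miR-218 (-4.30) and miR-15a (-4.01), all lower in Purkinje cells. MiR-15a was higher in cerebellum (1738 against 792 RPM), and miR-218 did not pass between the tissues (3597 against 2711 RPM).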

How the results depend on the processing

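The number of miRNAs called (287) ran from 216 under the stricter filter to 316 in edgeR with RLE factors, and from 253 to 295 when each library was left out. Leaving out libraries gave 220 to 241 for the difference of differences, 24 to 48 for arm ratios and 156 to 175 for seed families. Arm ratios rose from 35 to 64 calls with 5 reads added to each arm. None of the 207 named miRNAs was called in the opposite direction under any alternative run. Division by TMM factors ended 4 of their calls and added 4, edgeR with RLE factors ended 12 and added 11, DESeq2 ended 15 and added 10, and the 6 libraries alone ended 12. Leaving out 1 library ended 7 to 16. The cause was not tested. Purkinje and Gad2 libraries share only replicate numbers, whose deviations correlated at -0.089, 0.109 and -0.1. Libraries of unlike number correlated at up to 0.157, so the numbers gave no sign of pairing. Deviations from a mean of 3 libraries are tied to each other, so these values cannot settle whether libraries were prepared together. A replicate block gave fewer calls, 72 of them higher (33.0% of calls), and 26 arm ratios, and 30 named miRNAs lost their call under it. The minimum of 5 reads of each arm in each group was chosen after seeing the data. Purkinje depth limits the low miRNAs, with 3 reads at up to 1.454 RPM.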
